A study of Mus musculus with 4 samples.

Results

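Mouse genes whose symbols end in Rik carry the names of clones from the RIKEN full-length cDNA collection, which stand until a gene receives a name for its family or function. The transcripts described here are those Rik-named genes that were abundant in wild-type round spermatids. Entries were summed per symbol, and a symbol was kept when its mean over the 2 wild-type libraries reached 100 FPKM, a level of fragments scaled by transcript length and library size. This gave 168 of the 1852 Rik symbols and of the 22552 symbols in the tables. They made up 16.5% of the 1021 symbols at that level. RefSeq gives 77 of them another symbol by now and keeps the Rik name for 90, while 1700058G18Rik matched more than 1 entry and was given no new name. The wild-type values chose the members, so these levels are a description, and a set with high wild-type values leaves room for lower values in the knockout.

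The cells came from testes of 23-day-old male mice, in which haploid cells were picked by fluorescence-activated sorting on a Hoechst stain. There were 2 libraries labelled Sox30 knockout and 2 labelled wild type, and the comparison asks which transcripts of early haploid male germ cells depend on Sox30. The strain label reads DBA/C58/ICR and DBA/C60/ICR for the knockout libraries, against DBA/C57/ICR and DBA/C59/ICR for the wild-type libraries, so its middle number runs up by 1 over the samples. Whether these numbers stand for different strains is not known, and the label was not used. How much of Sox30 was removed, whether each library is a separate animal, and whether animals were pooled are all absent from the labels. The p-values therefore rest on library-to-library spread alone, and part of that spread may be technical. In sorted bulk cells, fewer cells of a stage and less RNA per cell cannot be told apart.

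SOX30 is a transcription factor of the SOX family, which shares a DNA-binding domain of the HMG-box type that contacts short AT-rich words. Round spermatids are the haploid cells that follow meiosis. They build the acrosome, the secretory cap of the sperm head, and the flagellum, and later replace histones with transition proteins and protamines. Many genes with Rik names are expressed mainly in testis, and part of their products have since been placed in the acrosome, the flagellum or the sperm mitochondria.

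Sox30 itself stood at 1.46 and 3.16 FPKM in the knockout libraries, against 11.4 and 16.2 FPKM in the wild-type libraries. The log2 change, knockout minus wild type on log2(FPKM + 1), was -2.19 ± 0.43 (SE, limma adjusted p = 0.0219, n = 2 each). Read counts were not used here and absolute depth is unknown; relative depth, read from the steps between low values with wild-type library 1 as 1, was 1.24 and 1.16 for the knockout libraries and 1.39 for wild-type library 2. Among marker genes, 8 of 12 for round spermatids and 8 of 10 for later spermatids were lower in the knockout, and 0 of 12 for spermatocytes were called (limma, adjusted p under 0.05), with 3 of them lower at an unadjusted p under 0.05. The summed FPKM of the later-spermatid genes was 828 and 534 in the knockout libraries and 14080 and 8772 in the wild-type libraries. The spermatocyte sum was 6277 and 5801 in the knockout and 5941 and 4956 in the wild type, most of it from Ldhc, with 5186 and 5056 in the knockout and 5002 and 4016 in the wild type. The meiotic genes Sycp1, Sycp2, Sycp3, Hormad1, Spo11 and Dmc1 each had both knockout values below both wild-type values, with log2 changes between -1.40 and -0.32 that did not pass. Blood markers summed to 8.51 and 0.178 in the knockout and 248 and 148 in the wild type, Leydig markers to 0.0674 and about 0 in the knockout and 60.3 and 37.3 in the wild type, and Sertoli markers to 63.5 and 22.1 in the knockout and 83.4 and 222 in the wild type. Spermatogonial markers summed to 7.11 and 5.69 in the knockout and 33.5 and 37.1 in the wild type (4 of 5 tested lower), and peritubular myoid markers to 1.34 and 2.23 in the knockout and 9.44 and 7.49 in the wild type. Most of the Sertoli sum came from Clu, with 62.9 and 21.2 in the knockout and 82.1 and 218 in the wild type. Amh, also on the Sertoli list, was at 0 in all 4 libraries. The part of these differences in the results on the Rik transcripts was not tested.

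The abundant Rik transcripts fell into a group that nearly vanished in the knockout and a larger group that stayed near its wild-type level. All 168 were measured above the filter on low values, which their wild-type level alone ensures. The limma test called 57 of them lower in the knockout, 33.9% of the set, and 3 higher. Over all 9124 symbols tested, 13.4% were called lower and 1.95% higher. Of the 853 other symbols at the same wild-type level, 115 (13.5%) were called lower and 15 (1.76%) higher, and of the 862 Rik symbols tested below that level, 210 (24.4%) were called lower and 21 (2.44%) higher. Both knockout values lay below both wild-type values for 72 members (42.9%), against 38.6% of all symbols tested and 27.9% of the other abundant symbols. Both lay above for 54 members (32.1%), against 22.2% of all symbols tested and 41.9% of the other abundant symbols. With members taken instead by a mean over all 4 libraries of at least 100 FPKM, 38 of 163 were called lower (23.3%), beside 6.2% of the other symbols at that level. The calls depended on the libraries: fewer members were called lower when a wild-type library was left out, and more when a knockout library was. In such a fit, the lone library is assumed to vary like the other genotype. The standard deviation of the difference between libraries was 0.85 in the knockout and 0.49 in the wild type. The ratios moved little: members under 5% of wild type numbered 38 without wild-type library 1 and 40 without wild-type library 2. They numbered 37 without knockout library 1 and 38 without knockout library 2, against 40 with all libraries. With no filter on low values, the count called lower was 28.

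By the ratio of the knockout mean to the wild-type mean, 40 members were lost (under 5%), 22 were reduced (5% to under 50%), 95 were kept (50% to 200%) and 11 were raised (over 200%). These classes describe the measured difference and carry no test. All 40 lost members were called lower, as were 17 of the 22 reduced ones; 0 of the 95 kept ones were called in either direction (4 lower and 13 higher at an unadjusted p under 0.05), and 3 of the 11 raised ones were called higher. Among the 853 other abundant symbols, 72 (8.44%) met the ratio for lost, against 23.8% of the Rik members. Together the lost members held 156 and 90.6 FPKM in the knockout libraries and 12269.5 and 8985 FPKM in the wild-type libraries. The kept members held 48729.8 and 58238 FPKM in the knockout and 45377 and 35848 FPKM in the wild type. The share of all FPKM taken by the whole set overlapped between genotypes, at 10.4% and 11.6% in the knockout and 13.0% and 11.3% in the wild type.

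**Figure D1:**
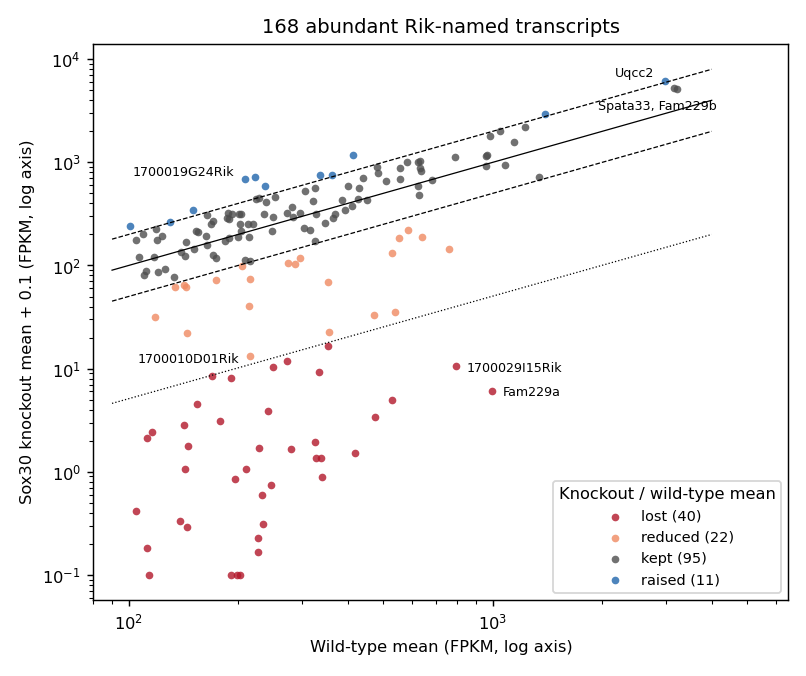
Mean FPKM in the 2 Sox30 knockout libraries, with 0.1 added (vertical, log axis), against the mean in the 2 wild-type libraries (horizontal, log axis) for the 168 members, 1 point each, coloured by class. The solid line marks equal means, the dashed lines 50% and 200%, and the dotted line 5% of wild type; the 40 lost members form a cloud below the dotted line, and the 95 kept members lie between the dashed lines.

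The median log2 change of the 168 members was -0.16, beside -0.23 for all symbols tested and 0.17 for the other abundant symbols. The sign of this median depends on scaling: it was 0.06 with median-ratio scaling of the libraries, which moved the median of all symbols to -0.03, and 0.10 after a correction for GC content. The distribution had a long lower tail, since the lost members had a median of -6.81 and the kept members 0.27. The class bounds cut through members: 9 had a ratio between 0.03 and 0.08, 10 between 0.4 and 0.6 and 14 between 1.8 and 2.2, so the 11 raised members in particular are set by the bound. The lost share also differed with level. Of the members with a wild-type mean of 100 to 200 FPKM, 17 of 58 were lost, of those from 200 to 500 FPKM 20 of 76, and of those above 500 FPKM 3 of 34.

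**Figure D2:**
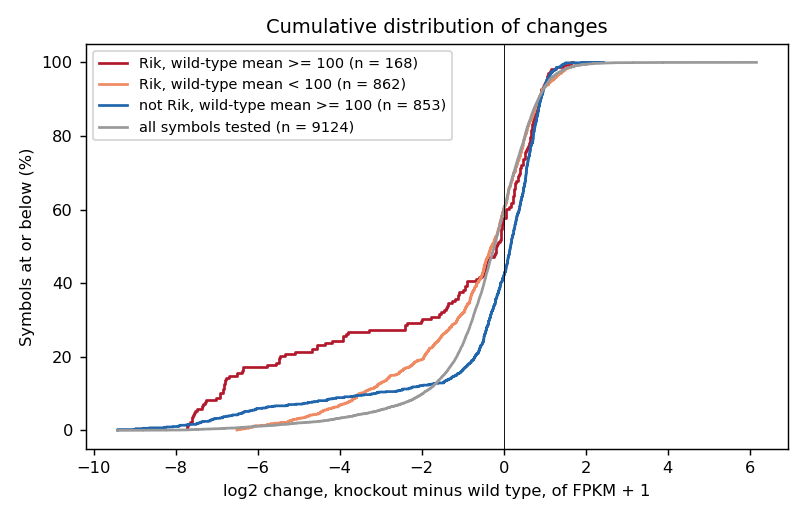
Cumulative share of symbols (vertical, percent) at or below each log2 change, knockout minus wild type (horizontal), for the abundant Rik members, the less abundant Rik symbols tested, the other abundant symbols and all 9124 symbols tested. The curve of the abundant Rik members lies above the others below -4, where the 40 lost members lie, and near 0 it runs close to that of all symbols tested, while the curve of the other abundant symbols lies lower there.

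The most abundant lost member was 1700125D06Rik, now Fam229a, and its paralog 1700025K23Rik, now Fam229b, was the most abundant member of all. Fam229a had 8.66 and 3.26 FPKM in the knockout libraries, against 1167 and 830.0 FPKM in the wild-type libraries. Fam229b had 4729 and 5676 FPKM in the knockout, against 3637 and 2802 FPKM in the wild type. The paralogs thus differed: Fam229a fell by 7.26 ± 0.46 on the log2 scale (limma adjusted p = 5.7e-04), while both knockout values of Fam229b lay above both wild-type values without passing the test (log2 change 0.70 ± 0.28, adjusted p = 0.159). The functions of both proteins are not described here, and reads that fit both copies could have been split between them. Fam229a lies on chromosome 4 and Fam229b on chromosome 10. Their RefSeq promoters (build GRCm38.p6) are shown because the pair differs in response; Fam229a starts on the plus strand (chr4:129490940-129491189) and Fam229b on the minus strand (chr10:39133907-39134156). Each sequence holds the 250 bases before the annotated start, written 5′ to 3′ on the strand of the gene, with no capitals because neither holds the word ACAAT or its reverse complement ATTGT, the SOX-type word searched.
Fam229a: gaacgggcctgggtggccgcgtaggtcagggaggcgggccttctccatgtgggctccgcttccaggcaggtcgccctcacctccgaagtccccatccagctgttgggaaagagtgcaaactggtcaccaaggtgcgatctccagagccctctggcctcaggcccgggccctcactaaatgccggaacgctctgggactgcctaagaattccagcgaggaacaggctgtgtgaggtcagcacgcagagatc
Fam229b: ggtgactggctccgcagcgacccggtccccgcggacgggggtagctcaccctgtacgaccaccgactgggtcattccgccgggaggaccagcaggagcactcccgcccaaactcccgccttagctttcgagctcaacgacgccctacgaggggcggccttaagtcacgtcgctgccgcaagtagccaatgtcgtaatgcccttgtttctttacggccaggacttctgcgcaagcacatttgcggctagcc

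Lost members with known places in the sperm head covered the acrosome and the nucleus. Fam209 (1700029J11Rik), whose protein partners DPY19L2 in anchoring the acrosome, had 3.13 and 3.47 FPKM in the knockout and 518 and 431 FPKM in the wild type. Eqtn (4930579C15Rik), equatorin, a protein of the acrosomal membrane, had 0.627 and 0 FPKM in the knockout and 113 and 95.9 FPKM in the wild type. Both knockout libraries stood far below both wild-type libraries for each gene, with log2 changes of -6.79 ± 0.29 and -6.37 ± 0.39 (limma adjusted p = 4.8e-04 and 5.5e-04). H2bl1 (1700024P04Rik), a histone H2B-like gene of spermatids, had 0 and 0.250 FPKM in the knockout and 265 and 189 FPKM in the wild type. Pmis2 (4930479M11Rik), needed in mice for sperm to enter the oviduct and listed by RefSeq as a lncRNA, had 0.166 and 0 FPKM in the knockout and 129 and 95.8 FPKM in the wild type. These genes were also near 0 in the knockout, with adjusted p of 4.8e-04 and 4.8e-04.

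Other head genes were reduced without being lost. Spaca9 (1700026L06Rik), named as a sperm acrosome-associated gene, had 36.6 and 34.5 FPKM in the knockout and 651 and 430.0 FPKM in the wild type (log2 change -3.86 ± 0.32, limma adjusted p = 0.00105). Llcfc1 (1700034O15Rik), the sperm-egg fusion factor also called SOF1, had 119.9 and 143 FPKM in the knockout and 596 and 462 FPKM in the wild type. Spata46 (1700015E13Rik), of the subacrosomal nuclear envelope, had 233 and 206 FPKM in the knockout and 670.2 and 503 FPKM in the wild type. The knockout and wild-type values did not overlap for any of these 3 genes, and more of the wild-type level remained for Llcfc1 and Spata46 than for Spaca9. Llcfc1 changed by -2.0 ± 0.29 (adjusted p = 0.00704) and Spata46 by -1.40 ± 0.29 (adjusted p = 0.0252); the Spata46 call is lost with median-ratio scaling (adjusted p = 0.1) and with the library number as a replicate block (adjusted p = 0.0639). Spatc1l (1700027D21Rik), a spermatogenesis and centriole-associated gene, did not pass, at 119.5 and 76.1 FPKM in the knockout and 219.7 and 190.2 FPKM in the wild type (adjusted p = 0.0832). In all, 7 of the 8 members sorted to the sperm head and fertilisation passed as lower, with a median log2 change of -5.11. The share called lower was 33.9% over the 168 members and 13.4% over all symbols tested. The sorting by role was made after the values were seen.

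All 5 members now named Tex, for testis-expressed, passed as lower, with a median log2 change of -6.80. The share called lower was 33.9% over the 168 members, 13.4% over all symbols tested and 13.5% over the other abundant symbols. The group rests on a shared name and was formed after the values were seen. Tex36 (4930404H21Rik) had 0.850 and 0.740 FPKM in the knockout and 399 and 281 FPKM in the wild type. Tex48 (1700018C11Rik) had 0 and 0.131 FPKM in the knockout and 263 and 191 FPKM in the wild type, the most negative log2 change of the 168 members (-7.73 ± 0.34, limma adjusted p = 4.8e-04). Tex43 (1700065I17Rik) had 3.16 and 0 FPKM in the knockout and 248 and 208 FPKM in the wild type. These 3 genes were at or near 0 in at least 1 knockout library. Tex29 (1700018L24Rik) kept a little more, with 6.19 and 17.5 FPKM in the knockout and 307 and 238 FPKM in the wild type. Tex33 (1700061J05Rik) was only reduced, with 201 and 172 FPKM in the knockout and 586 and 519.7 FPKM in the wild type (log2 change -1.57 ± 0.27, adjusted p = 0.0132, or 0.0557 with median-ratio scaling).

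**Figure D3:**
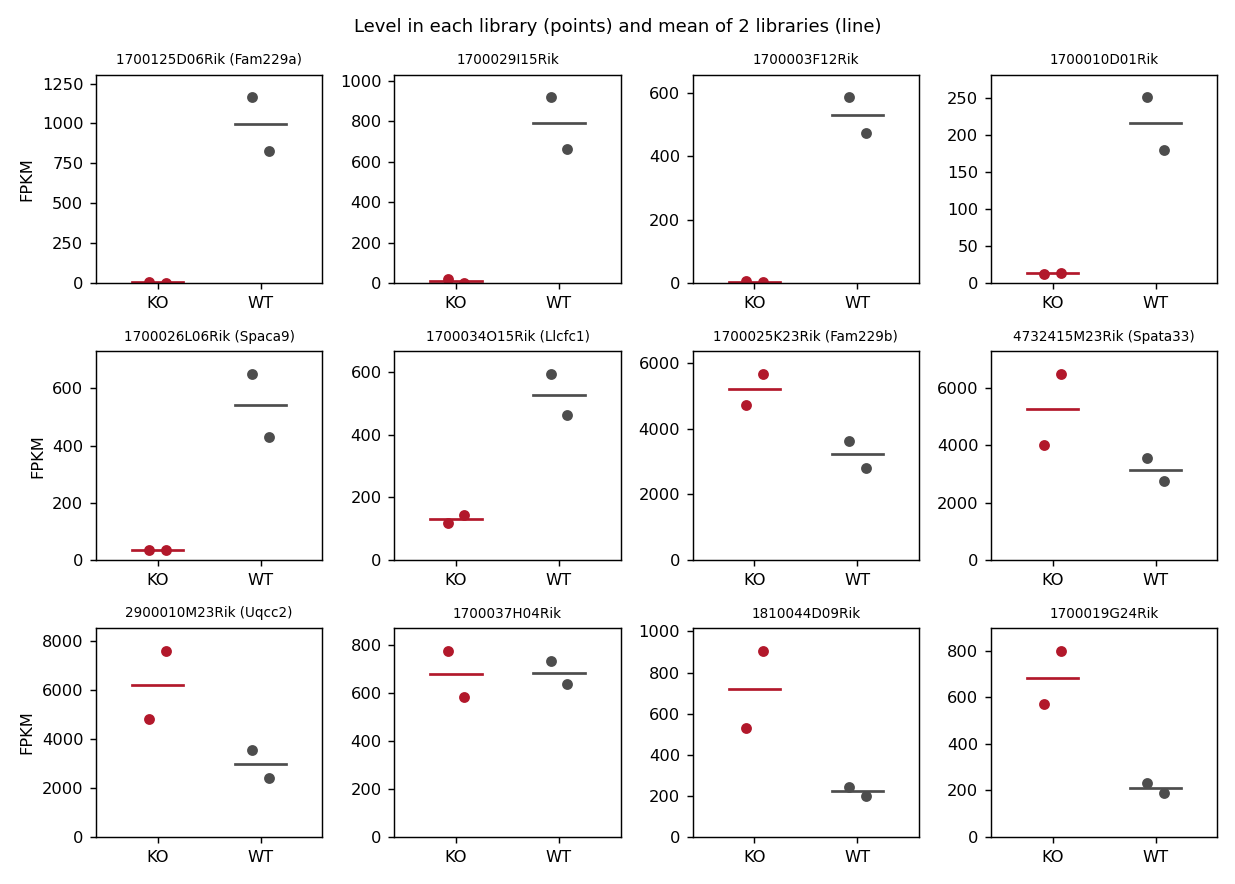
FPKM (vertical, linear from 0) in each Sox30 knockout library (red points) and each wild-type library (grey points) for 12 members, with a line at the mean of each genotype. Fam229a, 1700029I15Rik and 1700003F12Rik lie near 0 in both knockout libraries; 1700010D01Rik, Spaca9 and Llcfc1 keep a part of their level; the other 6 overlap the wild type or lie above it.

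Further lost members ranked high in the wild type. 1700029I15Rik had 19.9 and 1.02 FPKM in the knockout and 920.3 and 664 FPKM in the wild type, with knockout libraries far apart from each other (log2 change -6.91 ± 1.03, limma adjusted p = 0.00831). 1700003F12Rik had 6.0 and 3.76 FPKM in the knockout and 588 and 474 FPKM in the wild type. 1700092M07Rik had 2.86 and 0 FPKM in the knockout and 499 and 336 FPKM in the wild type. The 3 genes were separated between genotypes in every library. 1700013G24Rik, with 19.7 and 12.9 FPKM in the knockout and 417 and 286 FPKM in the wild type, had the highest knockout mean of the 40 lost members. Scp2d1 (1700010M22Rik), named for a sterol carrier protein domain, had 2.27 and 0.220 FPKM in the knockout and 378 and 276 FPKM in the wild type. Tmem247 (1700090G07Rik), named as a transmembrane protein, had 11.7 and 6.46 FPKM in the knockout and 374 and 292 FPKM in the wild type. The genotypes did not overlap for any of these genes either.

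Of the 40 lost members, 18 were at 0 in at least 1 knockout library and 4 were at 0 in both. The 4 were 1700042G07Rik, with 266 and 138 FPKM in the wild type, 1700015G11Rik, with 239 and 142 FPKM, 1700016P04Rik, with 239 and 157 FPKM, and 1700031M16Rik, with 143 and 84.5 FPKM. Since there is no count behind a 0 here, no fold is given for them. The knockout mean was under 1 FPKM for 17 lost members. Among the other deep falls, 1700001P01Rik had 0.417 and 0 FPKM in the knockout and 266 and 203 FPKM in the wild type, and 1700052I22Rik, a lncRNA, had 2.51 and 0 FPKM in the knockout and 389 and 287 FPKM in the wild type. The log2 changes of the lost members ran between -7.73 and -4.19, a range that depends on the added 1 FPKM and is compressed by it. Knockout library 1 was above library 2 in 27 of the 40, whereas library 2 was above library 1 in 67 of the 106 kept and raised members. Among the other abundant symbols, library 1 was above library 2 in 50 of 72 lost, 376 of 651 kept and 10 of 64 raised ones. The mildest of the falls within the class was that of 4930529L06Rik, a lncRNA with 6.73 and 9.88 FPKM in the knockout and 205 and 134 FPKM in the wild type. With a pseudocount of 0.1 in place of 1, 3 lost members passed no longer: 4930404N11Rik (adjusted p = 0.0668), 4930451I11Rik (0.0762) and 4930522H14Rik (0.0541), each with knockout libraries far apart.

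Among the 22 reduced members, all had both knockout values below both wild-type values, as did 65 of the 66 reduced other abundant symbols. The same held for all 40 lost members and all 72 lost other abundant symbols. The ratio that defines these classes nearly fixes such a separation. 1700010D01Rik, a lncRNA gene on the X chromosome, had 12.5 and 14.0 FPKM in the knockout and 251 and 179.9 FPKM in the wild type (log2 change -3.91 ± 0.31, limma adjusted p = 0.00102). At 6.14% of its wild-type mean it lay just outside the lost class. Krt88 (1700011A15Rik), a keratin gene, had 19.2 and 26.1 FPKM in the knockout and 395 and 317 FPKM in the wild type. Fam24b (1700007K09Rik) had 31.3 and 34.1 FPKM in the knockout and 547 and 395 FPKM in the wild type. These 3 genes, with Spaca9, formed the lower edge of the class, with means under 10% of wild type. 1700041C23Rik, a lncRNA and the most abundant reduced member, had 105 and 186 FPKM in the knockout and 863 and 655 FPKM in the wild type. 1700013F07Rik had 215 and 159 FPKM in the knockout and 742 and 536 FPKM in the wild type. Both passed, with adjusted p of 0.00890 and 0.0156. Ssmem1 (1700025E21Rik), 1700016D06Rik, 1700020L24Rik, Spatc1l and Cfap97d1 made up the 5 that did not pass.

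Of 9 members with mitochondrial products, 1 (11.1%) passed as lower in the limma test, beside 33.9% of the 168 members. This share was close to the 13.4% of all symbols tested and the 13.5% of the other abundant symbols. None of the 9 passed as higher (1.95% of all symbols). At an unadjusted p under 0.05, 2 were lower and 3 higher, and the median log2 change was 0.70. Spata33 (4732415M23Rik), which anchors calcineurin at sperm mitochondria, had 3998 and 6482 FPKM in the knockout and 3562 and 2738 FPKM in the wild type (log2 change 0.70 ± 0.34, limma adjusted p = 0.218). Uqcc2 (2900010M23Rik), an assembly factor of respiratory complex III, had 4818 and 7602 FPKM in the knockout and 3549 and 2398 FPKM in the wild type (log2 change 1.05 ± 0.36, adjusted p = 0.110). Both knockout values lay above both wild-type values in both genes, and neither passed the test. Slirp (1810035L17Rik), an RNA-binding partner of LRPPRC in mitochondria, had 2334 and 3577 FPKM in the knockout and 1596 and 1188 FPKM in the wild type. Ndufaf8 (1810043H04Rik), for assembly of complex I, had 590.4 and 905 FPKM in the knockout and 417 and 306 FPKM in the wild type. Fmc1 (1110001J03Rik) for assembly of ATP synthase and Micos13 (2410015M20Rik) for the cristae complex MICOS likewise had higher knockout values, with log2 changes of 0.86 ± 0.41 and 0.65 ± 0.28 that did not pass. Sdhaf4 (1110058L19Rik), for assembly of complex II, was at 147 and 169.5 FPKM in the knockout and 188 and 141 FPKM in the wild type, which overlap.

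The remaining 2 mitochondrial members had both knockout values below both wild-type values. Atp5mpl (2010107E04Rik), a subunit of ATP synthase, had 502 and 953 FPKM in the knockout and 1509.7 and 1179 FPKM in the wild type and did not pass (log2 change -0.95 ± 0.38, limma adjusted p = 0.158). Armc12 (4930511I11Rik), needed to form the sperm mitochondrial sheath, had 73.5 and 73.8 FPKM in the knockout and 244 and 188 FPKM in the wild type, with nearly equal knockout libraries. It passed, with a log2 change of -1.53 ± 0.28 and an adjusted p of 0.0181. Armc12 was the only mitochondrial member called lower, and its call depended on the settings. Median-ratio scaling removed it (limma adjusted p = 0.0629), as did dropping the low-value filter (0.0771).

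Of the 14 members of the cilium and the flagellum, 12 were in the kept class, which held 76.3% of the other abundant symbols and 61.6% of all symbols tested. In the limma test 0 passed as lower and 1 as higher, beside 33.9% and 1.79% of the 168 members and 13.4% and 1.95% of all symbols. Each member was sorted to only 1 role, after the values were seen. Spaca9 and the Tex-named members, all called lower, were therefore not counted here, whatever their place in the flagellum. The count of 0 depends on that sorting and does not show that flagellar transcripts were spared. At an unadjusted p under 0.05, 2 were lower and 2 higher, and the median log2 change was 0.11. Catsperz (1700019N12Rik), an auxiliary subunit of the sperm calcium channel CatSper, had 1613 and 2027 FPKM in the knockout and 1096 and 877 FPKM in the wild type (log2 change 0.88 ± 0.28, limma adjusted p = 0.0965). Ift43 (1700019E19Rik), of the intraflagellar transport complex A, had 824 and 930.4 FPKM in the knockout and 694 and 569 FPKM in the wild type. Stpg4 (1700011E24Rik), grouped here by its sperm-tail repeat name, had 1144 and 1117 FPKM in the knockout and 906 and 675 FPKM in the wild type. The knockout values of these 3 genes lay above the wild-type values without passing the test. Cfap299 (1700007G11Rik) had 389 and 478 FPKM in the knockout and 423 and 346 FPKM in the wild type, which overlap. Cfap206 (1700003M02Rik), of the radial spokes, had 329 and 112 FPKM in the knockout and 253 and 375 FPKM in the wild type, so that the libraries within each genotype were far apart. Cfap126 (1700009P17Rik), also called flattop, had 129 and 90.9 FPKM in the knockout and 271 and 160.1 FPKM in the wild type (log2 change -0.94 ± 0.37, adjusted p = 0.153).

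The exceptions among the cilium members were Cfap298 and Cfap97d1. Cfap298 (1110004E09Rik), an assembly factor for axonemal dynein, had 699.6 and 805 FPKM in the knockout and 349 and 322 FPKM in the wild type and passed as higher (log2 change 1.16 ± 0.26, limma adjusted p = 0.0348). Its call is lost with median-ratio scaling (adjusted p = 0.0645), without a mean-variance trend (0.0637), with the library number as a replicate block (0.122) and after GC correction (0.138). Cfap97d1 (1700006E09Rik) had 4.39 and 39.9 FPKM in the knockout and 154 and 136 FPKM in the wild type, with knockout libraries far apart (log2 change -3.29 ± 0.90, adjusted p = 0.0639). It passes with a pseudocount of 5 (adjusted p = 0.0334), a mean of at least 5 FPKM (0.0394), the library number as a block (0.0155), crossed numbers (0.0235), GC correction (0.0283), length correction (0.0140) and without either knockout library.

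**Figure D4:**
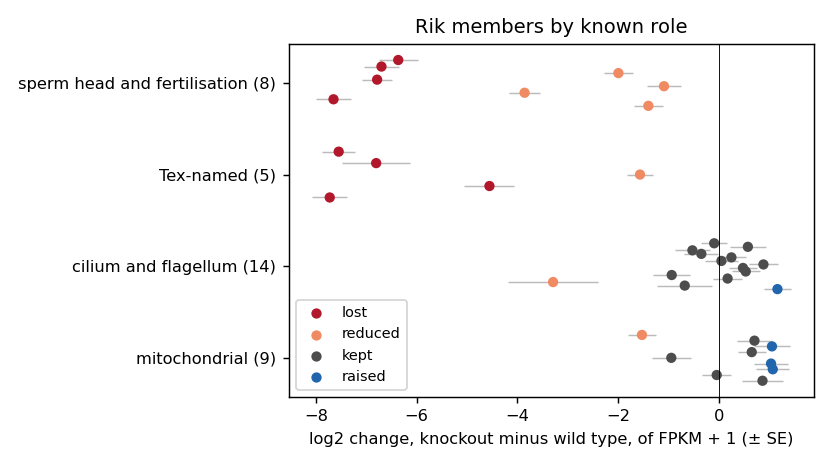
Log2 change, knockout minus wild type, of FPKM + 1 (horizontal) with its standard error (bars) for the 36 members sorted by role, coloured by class; the number of members stands beside each role. The 8 head and fertilisation members and the 5 Tex-named members all lie left of 0, and 12 of the 14 cilium and flagellum members lie between -1 and 1 in the kept class.

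Other abundant kept members covered general and meiotic functions. Tmem258 (1810006K21Rik), a subunit of the oligosaccharyltransferase complex, had 1569 and 2879 FPKM in the knockout and 1463 and 984 FPKM in the wild type. Tsacc (1700021C14Rik), a cochaperone that activates the testis kinase TSSK6, had 1518 and 2491 FPKM in the knockout and 1180.1 and 910.3 FPKM in the wild type. Syce3 (1700007E06Rik), of the central element of the synaptonemal complex that pairs chromosomes in meiosis, had 497 and 824 FPKM in the knockout and 592 and 427 FPKM in the wild type. Tsacc and Tmem258 had both knockout values above the wild-type values, while those of Syce3 overlapped. None of the 3 passed, with limma adjusted p of 0.215, 0.139 and 0.544. Smim24 (2210404O07Rik), a small integral membrane protein, had 1291 and 1052 FPKM in the knockout and 1049 and 879 FPKM in the wild type. Spata45 (1700022P22Rik), a spermatogenesis-associated gene, had 681 and 1221 FPKM in the knockout and 1199.6 and 967 FPKM in the wild type. 1700012B09Rik had 1449 and 1703 FPKM in the knockout and 1265 and 1029 FPKM in the wild type. The standard errors of these 3 log2 changes were 0.27, 0.36 and 0.27, so that moderate changes could not have been told from none with 2 libraries a genotype.

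The members nearest to no change included 1700037H04Rik, with 775 and 583 FPKM in the knockout and 732 and 635 FPKM in the wild type (log2 change -0.02 ± 0.28). 1700024G13Rik had 401 and 469.9 FPKM in the knockout and 546 and 356 FPKM in the wild type. Saysd1 (1810063B07Rik) had 176 and 192 FPKM in the knockout and 218 and 160.0 FPKM in the wild type. The genotypes overlapped in all 3. 1700029F12Rik, which had about the wild-type level of Fam229a, had 1023 and 829.8 FPKM in the knockout and 1135 and 787 FPKM in the wild type. Shcbp1l (1700012A16Rik), which acts at the spindle in male meiosis, had 168 and 101 FPKM in the knockout and 115 and 164 FPKM in the wild type. Over the 95 kept members, 61 had a knockout mean above the wild-type mean. Both knockout values lay above both wild-type values for 43 of the 95 (45.3%). This share was close to that of the kept other abundant symbols, 294 of 651 (45.2%). In the wild type, library 1 was above library 2 in 160 of the 168 members (95.2%) and in 76.4% of the other abundant symbols.

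Of the 11 raised members, 7 were lncRNAs, and 3 passed the test as higher. 1700019G24Rik, a lncRNA, had 569.6 and 800.2 FPKM in the knockout and 229.7 and 188 FPKM in the wild type (log2 change 1.70 ± 0.30, limma adjusted p = 0.0157). 1810044D09Rik, also a lncRNA, had 529.9 and 906 FPKM in the knockout and 245 and 201 FPKM in the wild type (log2 change 1.64 ± 0.35, adjusted p = 0.0293). The third was Cfap298. The genotypes were separated in all 3, and none of the 3 passed with no filter on low values or without a wild-type library. 1700010K23Rik had 843 and 1507 FPKM in the knockout and 466 and 362 FPKM in the wild type and missed the threshold narrowly (adjusted p = 0.0501). All 11 raised members were higher in knockout library 2 than in knockout library 1. Of the 64 raised other abundant symbols, only 10 were higher in library 1, so this tilt is not particular to the members.

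Of the 167 members with a RefSeq product type, 32 were long noncoding RNAs, against 260 of 855 less abundant Rik symbols tested and 7 of 840 other abundant symbols. Of the 32 members, 9 were lost, 3 reduced, 13 kept and 7 raised. GENCODE M21 gives 6 of the 32 a coding sequence, Pmis2 and 1700067P10Rik among them, so the annotations differ for these. Of the 131 protein-coding members, 30 were lost, 19 reduced, 78 kept and 4 raised. The limma test called 12 of the 32 lncRNAs lower (37.5%) and 2 higher, and 44 of the 131 protein-coding members lower (33.6%) and 1 higher. Both lower shares are close to the 33.9% of the whole set, beside 13.4% lower and 1.95% higher over all symbols tested. Lost lncRNAs included 1700013D24Rik, with 0 and 0.986 FPKM in the knockout and 254 and 211 FPKM in the wild type. 1700067P10Rik had 0.379 and 0 FPKM in the knockout and 170.4 and 118 FPKM in the wild type. Kept lncRNAs included 1700086L19Rik, the most abundant of them, with 1141 and 1151 FPKM in the knockout and 1102 and 813 FPKM in the wild type. 1700019M22Rik, which RefSeq lists as a noncoding RNA pseudogene, was lost, with 2.94 and 0.157 FPKM in the knockout and 324 and 234 FPKM in the wild type, and its reads could be shared with the parent gene.

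Some lost members adjoin other genes that were low in the knockout. An overlapping gene, or a gene on the opposite strand starting within 1 kb, was tested for 5 lost members. Tssk3, a testis serine kinase gene that starts near Fam229a, had 0 and 0.0696 FPKM in the knockout and 49.2 and 55.7 FPKM in the wild type. Tnp1, the transition protein gene that overlaps 1700027A15Rik, had 4.82 and 0 FPKM in the knockout and 1516 and 968 FPKM in the wild type. 1700027A15Rik itself, a lncRNA, had 1.28 and 0 FPKM in the knockout and 319 and 174 FPKM in the wild type. Both genes of each pair were thus lost together, but no source used here says whether reads were counted by strand, so reads of overlapping genes such as Tnp1 and 1700027A15Rik cannot be told apart. Lyzl4, a sperm lysozyme-like gene, had 4.40 and 0 FPKM in the knockout and 124 and 107 FPKM in the wild type. Its antisense RNA Lyzl4os (4930596M17Rik) had 0 and 0.463 FPKM in the knockout and 162 and 115 FPKM in the wild type. Necab3, which overlaps 1700003F12Rik, was at 0 in both knockout libraries and at 9.97 and 13.6 FPKM in the wild type, so 4 of the 5 neighbours met the ratio for lost and passed as lower. The fifth, F630110N24Rik beside 4930404N11Rik, did not pass (limma adjusted p = 0.264). Over all symbols tested, 7.69% met the ratio for lost and 13.4% passed as lower. Of the 5 neighbours tested for reduced members, 4 were kept, and 1 was lost and passed as lower. For 23 kept members with such a neighbour there were 30 pairs, of which 23 neighbours were kept, 5 reduced and 2 raised, and 1 passed as lower. In all, 39 of the 168 members overlap another listed gene.

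Transcripts of the Rik members were short, with a median of 961 nt against 1553 nt for the other abundant symbols (166 members with a GENCODE M21 transcript). The median was 726 nt for the lost, 857 nt for the reduced, 1091 nt for the kept and 547 nt for the raised members. Across members, the Spearman correlation of log2 change with length was 0.13 (n = 166) and with transcript GC content 0.05; across the other abundant symbols it was -0.17 and 0.25 (n = 840). Genes share libraries and depth, so these are descriptions. Members lay on 20 chromosomes, with lost members most often on chromosomes 4 (6 of 12 members), 7 (5 of 8), 2 (4 of 13) and 11 (4 of 12). The X chromosome held 1700010D01Rik and the kept lncRNA 1700011M02Rik.

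Promoters of 4 further lost members show where the word ACAAT, read on either strand as ACAAT or ATTGT, stood near a start. They were taken as the lost members of highest wild-type level that hold the word in the 250 bases before the start, and so illustrate the word without testing it. The capitals mark the word. The sequences are from RefSeq (GRCm38.p6), 5′ to 3′ on the strand of the gene: 1700003F12Rik on the plus strand (chr2:154548654-154548903), Fam209 on the plus strand (chr2:172472304-172472553), 1700013G24Rik on the plus strand (chr4:137453046-137453295) and Tex36 on the minus strand (chr7:133602116-133602365). The word began 74, 91, 212 and 77 bases before the start in these genes.
1700003F12Rik: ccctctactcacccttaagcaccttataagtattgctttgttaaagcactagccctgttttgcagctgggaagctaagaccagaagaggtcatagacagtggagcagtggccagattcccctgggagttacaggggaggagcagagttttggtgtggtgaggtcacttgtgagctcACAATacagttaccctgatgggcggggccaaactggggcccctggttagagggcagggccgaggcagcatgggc
Fam209: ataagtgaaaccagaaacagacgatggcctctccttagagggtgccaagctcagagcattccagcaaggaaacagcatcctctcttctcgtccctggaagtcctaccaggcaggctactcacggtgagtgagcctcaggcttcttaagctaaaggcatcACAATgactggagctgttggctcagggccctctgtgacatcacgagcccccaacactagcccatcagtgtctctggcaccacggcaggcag
1700013G24Rik: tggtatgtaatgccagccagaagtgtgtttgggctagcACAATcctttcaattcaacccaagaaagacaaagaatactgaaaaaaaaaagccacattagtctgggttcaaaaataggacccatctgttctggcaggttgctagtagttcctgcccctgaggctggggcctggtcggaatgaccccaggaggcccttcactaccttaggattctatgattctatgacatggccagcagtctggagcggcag
Tex36: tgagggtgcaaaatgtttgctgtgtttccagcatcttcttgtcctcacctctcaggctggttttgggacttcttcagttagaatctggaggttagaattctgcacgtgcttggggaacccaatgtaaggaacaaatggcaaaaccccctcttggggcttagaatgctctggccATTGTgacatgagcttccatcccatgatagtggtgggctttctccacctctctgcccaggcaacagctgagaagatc

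Over windows of 300 bases, 250 before to 50 after the start, the word was in 31.6% of the 27025 RefSeq promoters of the table. A promoter was found for 132 of the 168 members (78.6%) and for 25 of the 40 lost ones (62.5%), under the 80% needed, so a check of the word over the members is void. Among the promoters that were found, 19 of 25 lost, 10 of 19 reduced, 22 of 78 kept and 0 of 10 raised members held the word, as did 183 of 676 other abundant symbols. Of these other abundant symbols, 32 of 62 lost and 123 of 513 kept ones held the word. The Fam229a window holds it after the start, outside the bases shown. The word depends on base composition: it was in 49.9% of all windows under 50% GC and in 19.5% of the others, and the median GC content was 50.7% for lost and 55.3% for kept members. Within windows of 50% GC or more, 11 of 15 lost and 14 of 64 kept members held it, and within the others 8 of 10 lost and 8 of 14 kept members. A match is not a site of binding.

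At the edge of the level rule, the members just inside were 2410006H16Rik (wild-type mean 100.9 FPKM), A430005L14Rik (104.6 FPKM) and Eqtn (104.6 FPKM). Just outside were 1700054O13Rik, now H2ap (99.0 FPKM), Borcs8 (2310045N01Rik, 97.9 FPKM) and 1700029P11Rik (97.0 FPKM). H2ap, on the X chromosome, had 0 and 0.184 FPKM in the knockout and 113 and 84.8 FPKM in the wild type.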

How the data were processed

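RNA from sorted haploid cells was sequenced in 4 libraries; the kit was NEBNext Ultra RNA, per the labels' protocols. The authors deposited FPKM per gene, per the file headers; per the submitters' processing notes, the build was mm9 and the tools included Cuffdiff, Cufflinks 2.0.2 and TopHat2 2.0.6, with roles and settings not given in the sources used here. Genotypes and library numbers come from the sample titles. Entries were summed per symbol. Symbols with a mean of at least 1 FPKM over the 4 libraries were tested on log2(FPKM + 1) with limma 3.58.1 in R 4.3.3 (mean-variance trend, genotype only, 2 residual and 3.84 prior degrees of freedom), two-sided, with Benjamini-Hochberg adjustment over all 9124 symbols tested. Fold changes on this scale understate those of low genes. Names, product types and chromosomes come from RefSeq (GRCm38.p6), matched for 167 members, and transcript lengths from GENCODE M21; no mm9 coordinates are given. The step method for depth used a tolerance of 0.01 on the log2 scale.

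The members, lists, classes and tests were chosen with earlier results of these data known. Named genes were the markers 1700025K23Rik, 4732415M23Rik and 1700010D01Rik, Sox30, members ranked by wild-type level or by log2 change, members called higher, those at the edge of the level rule, and others within their class. The fit was checked on simulated data. Alternatives were pseudocounts of 0.1 and 5, filters, scalings, model settings, left-out libraries, a replicate block, other thresholds and other level rules. Whether the library numbers pair the samples is not known, and the main fit did not pair them.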

Additional observations from a re-analysis of the deposited data

How the results depend on the processing

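The count of Rik members lower in the knockout was 57, and it ran between 0 and 68 with 1 library left out (without wild-type library 2, 0 by limma, with 56 members at an unadjusted p under 0.05 in either direction). It was 28 with no filter on low values, 87 with members from a wild-type mean of at least 50 FPKM and 37 from at least 200 FPKM. All calls under no filter and without wild-type library 1 were among the 57. The count higher was 3; it ran between 0 and 29 with 1 library left out, and was 0 with no filter (limma, with 76 members at an unadjusted p under 0.05 in either direction), 5 with a pseudocount of 5, a mean of at least 5 FPKM, robust empirical Bayes or GC correction, 9 with quantile normalization or length correction, 14 at an adjusted p under 0.1, 6 from a wild-type mean of at least 50 FPKM and 7 from a mean over all 4 libraries. The other abundant symbols lower numbered 115, between 0 and 203 with 1 library left out, 50 with no filter, 208 and 48 from wild-type means of at least 50 and 200 FPKM, and 53 from the mean over all libraries. The other abundant symbols higher numbered 15, between 0 and 160 with 1 library left out, 9 with a pseudocount of 0.1, 1 with no filter, 39 with quantile normalization, 7 with no trend, 62 with length correction, 61 at an adjusted p under 0.1, 30, 9 and 32 under those 3 level rules. The median log2 change of the members was 0.10 after GC correction and 0.17 from the mean over all libraries, against -0.16.

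With the library number as a replicate block, 53 members were lower, 52 of them among the 57, and 2 higher, with 2 other abundant symbols higher. Over the symbols tested, the difference between the 2 knockout libraries correlated with that between the 2 wild-type libraries at r = -0.201. With 2 libraries a genotype, this single comparison cannot show whether the numbers pair the samples. With crossed library numbers as the block, 60 members were lower and 16 higher, and 107 other abundant symbols higher. Crossed numbers and the GC and length corrections were chosen after seeing the data.

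Lost members numbered 23 from a wild-type mean of at least 200 FPKM and 23 from the mean over all libraries. Reduced members numbered 38 and kept members 148 from at least 50 FPKM, and kept members 63 from at least 200 FPKM. Raised members, 11, numbered between 5 and 25 with 1 library left out, 25 with median-ratio scaling and 17 from the mean over all libraries. With ratio bounds of 0.1, 0.67 and 1.5, 61 were kept and 40 raised. The cause of these differences was not tested. With 2 libraries a genotype and no counts, a member that did not pass is not shown to be unchanged. Where a left-out library leaves 1 in a genotype, that lone library is assumed to vary like the other genotype.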
